A study of Mus musculus with 9 samples.

Results

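The BCL2 family decides whether the outer membrane of the mitochondrion is opened during apoptosis, and 9 of its genes were followed here in the infarcted mouse heart. They are the effectors Bax and Bak1, the guards Bcl2, Bcl2l1 and Mcl1, and the BH3-only genes Bbc3, Pmaip1, Bid and Bcl2l11. They were taken by gene symbol as named members of the family, with earlier results of these data known, and are 9 of 25468 genes in the data. All 9 were found, as 25 transcripts. The hearts came from wild-type mice (labelled WT) in 3 groups of 3 libraries of total RNA: sham operation (WT_Con), 1 day after acute myocardial infarction (WTMI1d) and 7 days after it (WTMI7d). The sources used here do not give the day on which sham hearts were collected, the strain and age of the mice or the part of the heart taken. The series also describes Hdc-/- mice, which were not analysed here. The comparisons address how the machinery of mitochondrial apoptosis differed early and later after infarction, in a study of protein folding stress and mitochondrial dynamics.

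As background, BAX and BAK, the products of Bax and Bak1, form pores in the outer mitochondrial membrane, through which cytochrome c reaches the cytosol and starts the caspase cascade. BCL-2, BCL-xL (from Bcl2l1) and MCL-1 hold the effectors in check. BH3-only proteins sense damage and either bind the guards or activate the effectors: PUMA (Bbc3) and NOXA (Pmaip1) are known targets of p53, BIM (Bcl2l11) responds to loss of growth factors and to cell stress, and BID links death receptors to mitochondria once caspase-8 has cut it. In heart muscle, loss of cells after infarction has been tied to this pathway, and much of its control is by protein binding, cleavage and turnover, which RNA does not show.

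Family members share a short region, the BH3 region, by which they bind each other. Its core is shown here as coding bases for those members in which the pattern below was found once. The core searched was a leucine codon, 3 codons of any kind, then a glycine and an aspartate codon, in the most abundant transcript of each member. The letters come from GENCODE M21 transcripts matched by transcript identifier, read 5′ to 3′, and capitals mark the leucine, glycine and aspartate codons.
Bax, codons 60 to 71: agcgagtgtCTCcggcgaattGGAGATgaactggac
Bak1, codons 73 to 84: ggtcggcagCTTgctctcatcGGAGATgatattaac
Bcl2, codons 91 to 102: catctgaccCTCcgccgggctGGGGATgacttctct
Bcl2l1, codons 87 to 98: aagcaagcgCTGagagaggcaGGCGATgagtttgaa
Mcl1, codons 191 to 202: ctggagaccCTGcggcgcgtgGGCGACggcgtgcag
Bid, codons 87 to 98: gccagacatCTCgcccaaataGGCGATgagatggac
Bcl2l11, codons 147 to 158: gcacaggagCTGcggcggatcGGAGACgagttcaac
In each of these 7 coding sequences the core was found once. No match was found in Bbc3, and Pmaip1, with 2 matches, is not shown. Only this pattern was searched, so the lack of a match does not mean that Bbc3 has no BH3 region. The core is short, and 13.6% of the 21614 genes with a coding sequence held it, so the letters alone do not mark the family.

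Expression is given in FPKM, sequenced fragments scaled by transcript length and by library size, summed over the transcripts of a gene. FPKM is corrected for length, so levels can be compared between genes. The number of reads behind a value is unknown. Library sums of FPKM over all genes ranged from 768943 to 792632 in sham, from 597380 to 729940 at day 1 and from 521643 to 679204 at day 7. Sham replicate 1 and day 1 replicate 2 held RNA of airway epithelium, with summed FPKM of 5 airway genes of 237 and 1533 against 28 or less in the other 7 libraries. In day 7 replicate 2 the sum of 7 T cell genes was 101 FPKM, against 21.5 or less elsewhere, and the skeletal muscle gene Myh4 was at 59.8 FPKM there, against 0.411 or less. Adipocyte genes summed to 472 FPKM in sham replicate 1, against 116 or less elsewhere. Mitochondrially encoded genes made up 24.4% of FPKM in day 7 replicate 1 and 34.2% to 39.8% in the others. The sum of 4 atrial muscle genes varied within groups, at 229 to 2676 FPKM in sham, 281 to 10948 on day 1 and 771 to 5401 on day 7. Heart tissue RNA mixes cell types, so a change in the number of cells of a type and a change in RNA per cell cannot be told apart in any value below. Genes with a mean of 1 FPKM or more were tested against sham by limma and called at an adjusted p under 0.05. Of the genes tested, 13.4% were called higher and 14.7% lower at day 1, and 15.7% and 17.3% at day 7. Of 10 genes of heart muscle cells, 6 were lower at day 1 and 7 at day 7. Their summed FPKM was 32804 to 35667 in sham, 17167 to 20823 on day 1 and 13230 to 23538 on day 7. Of 10 neutrophil genes 8 were tested, and all 8 were higher at day 1. The 10 summed to 56.9 to 118, 305 to 549 and 39.6 to 103 FPKM in sham, day 1 and day 7. Ly6g, listed at 0 in 2 of the sham libraries, and Trem1 were under the minimum. Cxcr2 and Mmp8, with sham means of 0.462 and 0.297 FPKM, passed it only through day 1 (6.83 and 2.68). Mmp9 (0.418 in sham) passed only through the infarct groups. The count is thus partly set by selection. Of 11 entries for monocytes and macrophages 8 were higher at day 1 and 5 at day 7, with sums of 399 to 687, 679 to 1161 and 851 to 1099 FPKM. The lower entry of Itgam (0.498, 3.29 and 0.758 FPKM in sham, day 1 and day 7) was tested only through day 1. Of 9 fibroblast genes 5 were higher at day 1 and 7 at day 7, with sums of 1159 to 1477, 1807 to 2404 and 4601 to 6472 FPKM. Cthrc1 among them, at 0.647 FPKM in sham, was tested only through the infarct groups. The part of these cell types in the results below was not tested.

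In sham hearts the guards Mcl1 and Bcl2l1 stood highest, the guard Bcl2 lay below both effectors, and the BH3-only genes were lowest. The order of mean FPKM was Mcl1 (81.4), Bcl2l1 (38.2), Bax (16.3), Bak1 (10.5), Bcl2 (6.40), Bcl2l11 (3.94), Bbc3 (1.90), Bid (0.890) and Pmaip1 (0.501). No pair of neighbours in this order overlapped over the 3 sham libraries. After infarction the order closed up in places. At day 1 Bcl2l11, at 5.66 to 7.89 FPKM, lay above Bcl2, at 4.14 to 4.99, and Bbc3, Bid and Pmaip1 overlapped each other. At day 7 Bcl2l1 (21.8 to 28.0 FPKM) overlapped Bax (21 to 26.6 FPKM), and Bcl2l11 (5.03 to 6.65) overlapped Bcl2 (5.63 to 6.29).

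**Figure D1:**
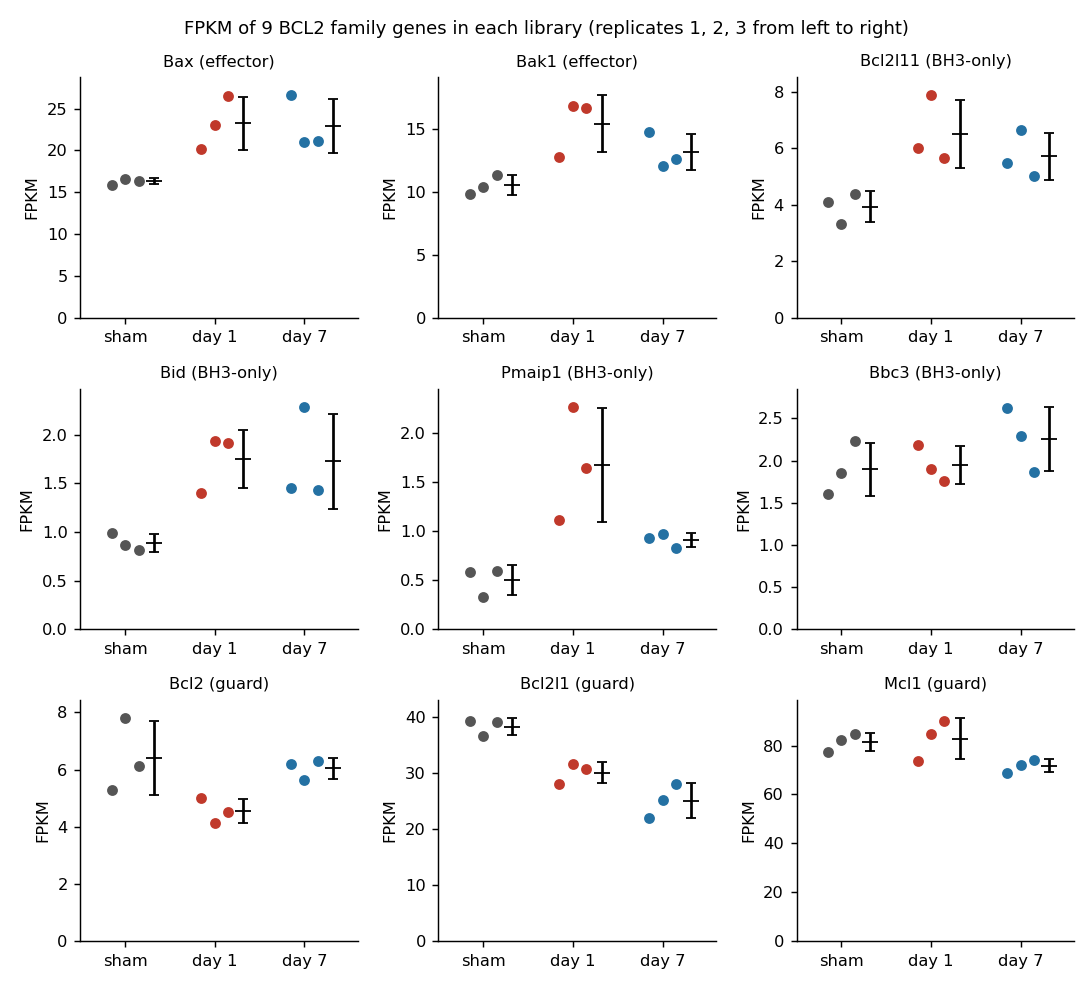
FPKM (y axis, linear from 0) of each of the 9 genes in the 3 libraries of sham, day 1 and day 7, as points in the order of replicates 1 to 3, with the mean and SD (n = 3) beside them in black. Bax, Bak1, Bid, Bcl2l11 and Pmaip1 lie above sham in all libraries of day 1, Bcl2 and Bcl2l1 lie below it, and Bbc3 and Mcl1 overlap sham.

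At day 1 both effectors and 3 of the 4 BH3-only genes were higher than in sham, and 2 of the 3 guards were lower. Of the 9 members 5 rose and 2 fell, by limma on log2(FPKM + 1) at an adjusted p under 0.05. The same test called 28.2% of the 13514 genes tested, 13.4% higher and 14.7% lower. Among the 5 that rose, Pmaip1 and Bid had sham means of 0.501 and 0.890 FPKM. They passed the minimum of 1 FPKM only through the infarct groups, Pmaip1 only through day 1. With a minimum of 5 FPKM, 6 members were tested, of which 3 rose and 2 fell. The members' median log2 fold change was 0.48, that of all genes -0.01. The groups did not overlap for the same number of members, 5 higher and 2 lower, against 22.5% and 25.1% of all genes tested. The changes were all under 1 on the log2(FPKM + 1) scale, which understates those of low genes: with a pseudocount of 0.1 in place of 1, Pmaip1 differed by 1.54. These counts rest on few libraries: without day 1 replicate 2, the library with most airway RNA, 0 members were called by limma, and Pmaip1 was then under the minimum level. Leaving out sham replicate 1, 2 or 3 left 2, 1 or 3 members higher and 1, 0 or 0 lower, and leaving out day 1 replicate 3 left 3 higher and 0 lower; without day 1 replicate 1 or day 7 replicate 2, 0 were lower, and without day 7 replicate 1 or 3, 1.

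Of the effectors, Bax was at 15.9, 16.6 and 16.4 FPKM in the sham libraries, 20.1, 23.0 and 26.5 on day 1 and 26.6, 21 and 21.2 on day 7. Both infarct groups lay wholly above sham and overlapped each other. Bax rose at day 1 (16.3 ± 0.375 to 23.2 ± 3.21 FPKM, SD, n = 3; log2 fold change 0.48, SE 0.12, limma adjusted p = 0.0221). It rose by a like amount at day 7 (22.9 ± 3.21 FPKM; log2 fold change 0.46, SE 0.12, limma adjusted p = 0.0233). Without the 2 libraries with airway RNA the adjusted p of Bax was 0.146 at day 1 and 0.0912 at day 7, at log2 fold changes of 0.46 and 0.44. An exon of Bax overlaps one of the predicted gene Gm45808 on the same strand, so some of its reads could belong to that model.

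Bak1 was at 9.83, 10.4 and 11.4 FPKM in sham, 12.8, 16.8 and 16.7 on day 1 and 14.8, 12 and 12.6 on day 7. Again each infarct library lay above each sham library, by less at day 7. Bak1 rose at day 1 (10.5 ± 0.779 to 15.4 ± 2.27 FPKM; log2 fold change 0.50, SE 0.12, limma adjusted p = 0.0185). At day 7, with 13.1 ± 1.42 FPKM, it did not pass the test (log2 fold change 0.29, SE 0.12, limma adjusted p = 0.0955). After rescaling to a common total (TPM) it did, at a log2 fold change of 0.64 (limma adjusted p = 0.0271). That rescaling moved the median of all genes at day 7 from -0.02 to 0.30. Its full-length transcript of 209 codons carried 93.2% of its FPKM.

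Among the BH3-only genes Pmaip1 had the largest difference at day 1. It was at 0.586, 0.324 and 0.594 FPKM in sham, 1.11, 2.27 and 1.64 on day 1 and 0.929, 0.968 and 0.829 on day 7. The 3 groups did not overlap: sham was lowest, day 7 lay between and day 1 was highest. Pmaip1 rose at day 1 (0.501 ± 0.154 to 1.67 ± 0.577 FPKM; log2 fold change 0.81, SE 0.17, limma adjusted p = 0.0112). Its mean over the 9 libraries was 1.03 FPKM, so it passed the minimum of 1 FPKM only through its level at day 1, and it was not tested without day 1 replicate 2 or without day 1 replicate 3, its 2 highest libraries. At day 7 the log2 fold change was 0.35 (SE 0.17, limma adjusted p = 0.142), which did not pass.

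Bcl2l11 was at 4.11, 3.34 and 4.37 FPKM in sham, 6.01, 7.89 and 5.66 on day 1 and 5.49, 6.65 and 5.03 on day 7. Both infarct groups lay above sham. Bcl2l11 rose at day 1 (3.94 ± 0.536 to 6.52 ± 1.20 FPKM; log2 fold change 0.60, SE 0.14, limma adjusted p = 0.0168). At day 7 it rose by 0.44 on the log2 scale (5.73 ± 0.837 FPKM; SE 0.14, limma adjusted p = 0.0418). The day 7 call was lost in 10 of 21 alternatives, at adjusted p of up to 0.136. Of its 5 transcripts, the one with the longest coding sequence, 196 codons (the length of the form known as BIM-EL), carried 67.0% of the FPKM: 2.72, 2.23 and 2.91 in sham, 4.30, 4.83 and 3.50 on day 1 and 3.80, 4.70 and 3.52 on day 7. A transcript of 91 codons carried 20.0%, and those of 110 and 140 codons the rest.

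Bid was at 0.993, 0.862 and 0.814 FPKM in sham, 1.40, 1.93 and 1.91 on day 1 and 1.45, 2.29 and 1.43 on day 7. Every infarct library was above every sham library, with day 7 replicate 2 highest. Bid rose at day 1 (0.890 ± 0.0930 to 1.75 ± 0.300 FPKM; log2 fold change 0.54, SE 0.15, limma adjusted p = 0.0289) and at day 7 (1.72 ± 0.488 FPKM; log2 fold change 0.51, SE 0.15, limma adjusted p = 0.0304). The calls of Bid were lost in 7 and 6 of 20 alternatives, at adjusted p of up to 0.156 and 0.103. Its sham mean was under the minimum of 1 FPKM, so it was tested only through its level in the infarct groups. Its exons overlap those of Bcl2l13, another gene of the family, on the opposite strand, and the sources used here do not say whether counting used strand.

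Bbc3 was at 1.61, 1.85 and 2.23 FPKM in sham, 2.19, 1.90 and 1.75 on day 1 and 2.62, 2.30 and 1.86 on day 7. The 3 groups overlapped throughout. Its log2 fold change was 0.03 at day 1 (95% interval -0.26 to 0.32, limma adjusted p = 0.896) and 0.17 at day 7 (-0.12 to 0.46, limma adjusted p = 0.325). So, of the 2 members known as p53 targets among BH3-only genes, Pmaip1 passed the test at day 1 and Bbc3 did not; the difference between them was not tested.

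**Figure D2:**
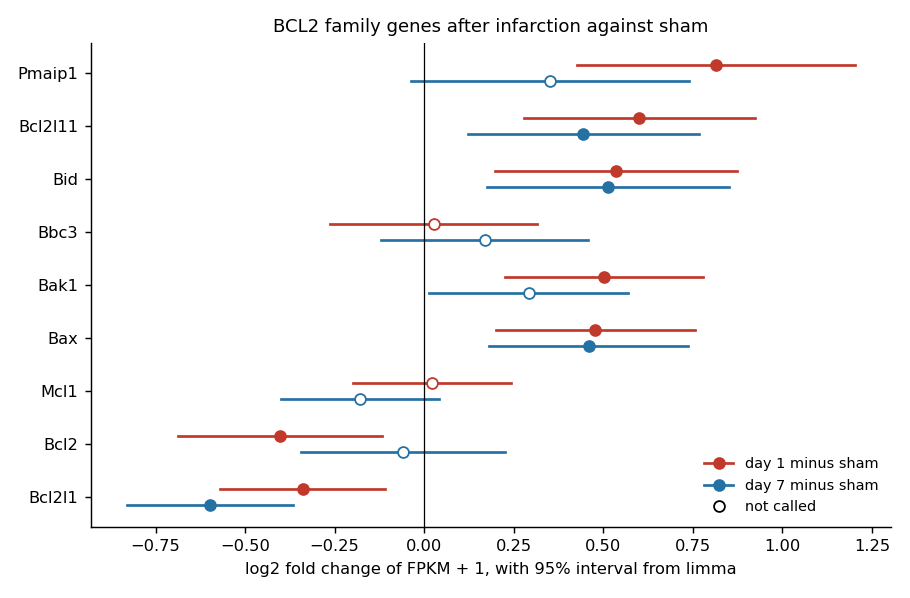
Log2 fold change of FPKM + 1 (x axis) of each gene at day 1 (red) and day 7 (blue) against the same 3 sham libraries, with the 95% interval from limma; open points did not pass the test. Pmaip1 at day 1 (0.81) and Bcl2l1 at day 7 (-0.60) lie farthest from 0.

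Of the guards, Bcl2l1 and Bcl2 fell at day 1, Bcl2l1 fell at day 7, and Mcl1 passed the test at neither time; differences between the guards were not tested. Bcl2l1 was at 39.1, 36.5 and 39.0 FPKM in sham, 28.0, 31.5 and 30.6 on day 1 and 21.8, 25.2 and 28.0 on day 7. It was lower in every infarct library than in any sham library. Bcl2l1 fell at day 1 (38.2 ± 1.51 to 30.0 ± 1.82 FPKM; log2 fold change -0.34, SE 0.10, limma adjusted p = 0.0373) and at day 7 (25.0 ± 3.09 FPKM; log2 fold change -0.60, SE 0.10, limma adjusted p = 0.00595). The fall at day 7 was called in 20 of 21 alternatives and lost with TPM (log2 fold change -0.25, limma adjusted p = 0.107). The call at day 1 was lost in 13 of 21 alternatives: with TPM the value was -0.07, and with only the most abundant transcript it was 0.11, of opposite sign.

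The transcripts of Bcl2l1 did not move together. This was looked at after the values were seen and is described without a test. The transcript with the highest level, ENSMUST00000109820, was at 13.6, 10.9 and 16.8 FPKM in sham, 14.2, 15.3 and 14.6 on day 1 and 10.3, 6.53 and 9.70 on day 7. The 7 others together were at 25.5, 25.6 and 22.2 FPKM in sham, 13.7, 16.2 and 16 on day 1 and 11.6, 18.7 and 18.3 on day 7. At day 1 the first overlapped sham and the sum of the others did not. Non-overlap with sham at day 1 is common, at 22.1% of 20698 transcripts for those lower. The 2 transcripts of 209 codons were at 9.90, 11.3 and 7.18 FPKM in sham and 3.77, 4.39 and 4.03 on day 1. The 2 of 233 codons, the length of BCL-xL, were at 20.0, 17.5 and 23.6 in sham, 17.7, 19.9 and 18.0 on day 1 and 14.2, 13.8 and 13.9 on day 7. The full-length forms thus overlapped sham at day 1 and lay below it at day 7, where 25.3% of transcripts did so. Reads were divided among transcripts that share most of their exons, so each such value is an estimate of unknown error.

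Bcl2l1 has more than one annotated start. The 150 bases before the outer start and before the inner start, which lies downstream of it, are shown because transcripts of the 2 starts are summed separately below. They are from RefSeq (GRCm38.p6), minus strand, at chr2:152831729-152831878 and chr2:152830718-152830867, another build than the GRCm39 of the authors, and are matched by gene symbol. The windows of Bax and Bcl2, at chr7:45466899-45467048 and chr1:106714291-106714440 on the minus strand, are given beside them, with GGGCGG on either strand in capitals.
Bcl2l1, outer start: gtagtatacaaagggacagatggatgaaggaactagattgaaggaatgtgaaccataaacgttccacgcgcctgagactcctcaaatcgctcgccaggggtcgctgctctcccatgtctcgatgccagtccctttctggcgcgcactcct
Bcl2l1, inner start: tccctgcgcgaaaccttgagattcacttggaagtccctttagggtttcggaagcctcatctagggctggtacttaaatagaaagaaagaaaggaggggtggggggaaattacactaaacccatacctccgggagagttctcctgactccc
Bax: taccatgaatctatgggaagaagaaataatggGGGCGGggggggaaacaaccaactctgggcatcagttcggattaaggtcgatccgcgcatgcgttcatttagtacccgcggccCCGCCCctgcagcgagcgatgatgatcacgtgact
Bcl2: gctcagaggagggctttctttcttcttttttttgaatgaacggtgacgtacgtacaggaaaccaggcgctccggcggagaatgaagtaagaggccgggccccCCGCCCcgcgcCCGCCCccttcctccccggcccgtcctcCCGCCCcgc
In GENCODE M21, also on GRCm38, 2 transcripts of Bcl2l1 begin within 100 bases of the outer start and 4 within 100 bases of the inner one. The outer pair summed to 6.40, 6.83 and 7.20 FPKM in sham, 3.74, 4.58 and 3.42 on day 1 and 3.90, 7.23 and 4.54 on day 7. The inner 4 summed to 27.4, 23.7 and 27.6 FPKM in sham, 21.9, 24.8 and 22.1 on day 1 and 16.5, 13.3 and 20.2 on day 7. So the outer sum lay below sham at day 1 and overlapped it at day 7, whereas the inner sum overlapped sham at day 1 and lay below it at day 7. A difference in course was not tested, and both sums had means below sham at both times. The outer means were 6.81, 3.91 and 5.22 FPKM in sham, day 1 and day 7, and the inner means 26.2, 22.9 and 16.7. The outer overlap at day 7 came from day 7 replicate 2 alone. The inner overlap at day 1 came from day 1 replicate 2 and sham replicate 2. The letters GGGCGG, searched on both strands of the 250 bases before the start, were in 32.7% of 32851 RefSeq windows. They occurred 7 times before Bcl2, 3 times before Bid, 2 times before Bax and once before Mcl1. Before the first and second start of Bcl2l11 they occurred 3 and 2 times, and before the 3 starts of Bbc3 5, 1 and 7 times. None was found before Bak1 or Bcl2l1. Both members that rose and members that fell are thus among those with and without it. TTCNNNGAA (in 7.02% of windows) was found before none of these 8 genes, and CACGTG (in 6.02%) before Bax and the third start of Bbc3. Overlapping matches were each counted.

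**Figure D3:**
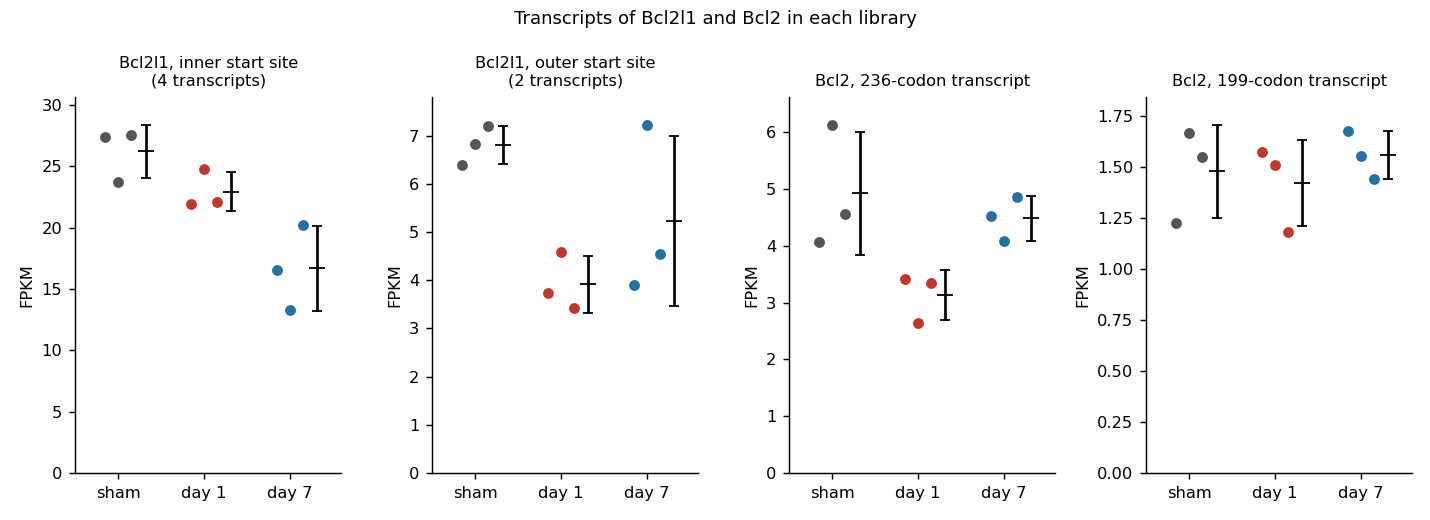
FPKM (y axis, linear from 0) in each library of the Bcl2l1 transcripts that begin at the inner and at the outer start site and of the 2 transcripts of Bcl2, as points in the order of replicates 1 to 3 with the mean and SD (n = 3) in black. The inner sum is lowest at day 7 (13.3 to 20.2), the outer sum at day 1 (3.42 to 4.58), and of Bcl2 the transcript of 236 codons is lowest at day 1 (2.63 to 3.42).

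Bcl2 was at 5.29, 7.80 and 6.11 FPKM in sham, 4.99, 4.14 and 4.53 on day 1 and 6.19, 5.63 and 6.29 on day 7. Day 1 lay below both other groups, and day 7 fell within the range of sham. Bcl2 fell at day 1 (6.40 ± 1.28 to 4.55 ± 0.424 FPKM; log2 fold change -0.40, SE 0.13, limma adjusted p = 0.0421). Day 7 differed from sham by -0.06 (6.04 ± 0.356 FPKM; 95% interval -0.34 to 0.22, limma adjusted p = 0.736), and by 0.26 with TPM. The day 1 call was lost in 14 of 21 alternatives, among them TPM (log2 fold change -0.18, limma adjusted p = 0.465) and the omission of sham replicate 2, the highest sham library (-0.27, limma adjusted p = 0.115).

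Within Bcl2, the transcript of 236 codons, the length of the membrane-anchored alpha form, was at 4.07, 6.14 and 4.57 FPKM in sham, 3.42, 2.63 and 3.35 on day 1 and 4.52, 4.08 and 4.85 on day 7. The transcript of 199 codons was at 1.22, 1.67 and 1.55 in sham, 1.57, 1.51 and 1.18 on day 1 and 1.68, 1.55 and 1.44 on day 7. The first was below sham in all 3 libraries of day 1, and the second overlapped sham at both times. An exon of Bcl2 overlaps D630008O14Rik on the opposite strand, and one of Bak1 overlaps Ggnbp1.

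Mcl1, a guard of short protein half-life, had the highest level of the 9 genes in each library. It was at 77.3, 82.3 and 84.5 FPKM in sham, 73.7, 84.6 and 90.2 on day 1 and 69.0, 71.9 and 74.3 on day 7. Day 1 spanned the sham range, and day 7 lay just under it. The log2 fold change was 0.02 at day 1 (95% interval -0.20 to 0.24, limma adjusted p = 0.889) and -0.18 at day 7 (-0.40 to 0.04, limma adjusted p = 0.179), and neither passed. With TPM the day 7 value was 0.18, of opposite sign. Without mitochondrially encoded genes Mcl1 was called higher at day 1 (log2 fold change 0.25, limma adjusted p = 0.0496), which made 6 members higher. The median of all genes at day 1 was 0.21 in that fit, against -0.01 in the main one.

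At day 7, Bax, Bid and Bcl2l11 were called higher than sham and Bcl2l1 lower, 3 and 1 of 9, where limma called 33.1% of all genes, 15.7% higher and 17.3% lower. Bid passed the minimum level only through the infarct groups. The members' median log2 fold change was 0.29, that of all genes -0.02. The groups did not overlap for 5 members higher and 2 lower, against 25% and 28.8% of all genes. The 3 rises were lost when any 1 sham library was left out and 1 was called without day 7 replicate 1 or 2, whereas the fall of Bcl2l1 was called in each of those fits.

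Day 7 was also set against day 1 directly, which tests whether the difference from sham changed between the times, since the sham libraries are shared. By limma 0 of 9 members were called, where 4.85% of all genes were (2.71% higher and 2.14% lower), and 3 had an unadjusted p under 0.05, as did 23.2% of all genes. Those 3 were Pmaip1 (log2 fold change -0.46, SE 0.17), Bcl2 (0.34, SE 0.13) and Bcl2l1 (-0.26, SE 0.10), with limma adjusted p of 0.149, 0.146 and 0.171. For Pmaip1 each library of day 7 was lower than each of day 1, as for 14.1% of all genes, and for Bcl2 each was higher, as for 13.1%. A difference between the times was thus not shown for any member.

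The ratio of Bax to Bcl2 FPKM, often used as an index of the balance of the family, does not depend on how a library is scaled. It was 3.0, 2.13 and 2.68 in sham, 4.04, 5.56 and 5.86 on day 1 and 4.30, 3.73 and 3.37 on day 7. All infarct libraries were above all sham libraries, and the 2 infarct groups overlapped only in that day 7 replicate 1 exceeded day 1 replicate 1. The means were 2.61 ± 0.442, 5.15 ± 0.977 and 3.80 ± 0.471 (SD, n = 3). No test is given, since both genes were chosen with their values known. Summed by role, the effectors were at 25.7 to 27.8 FPKM in sham, 32.9 to 43.2 on day 1 and 33.0 to 41.4 on day 7. BH3-only genes summed to 6.37 to 8.01, 10.7 to 14.0 and 9.15 to 12.2 FPKM. The guards, of which Mcl1 is most, summed to 122 to 129.7, 107 to 125 and 97.0 to 109 FPKM.

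**Figure D4:**
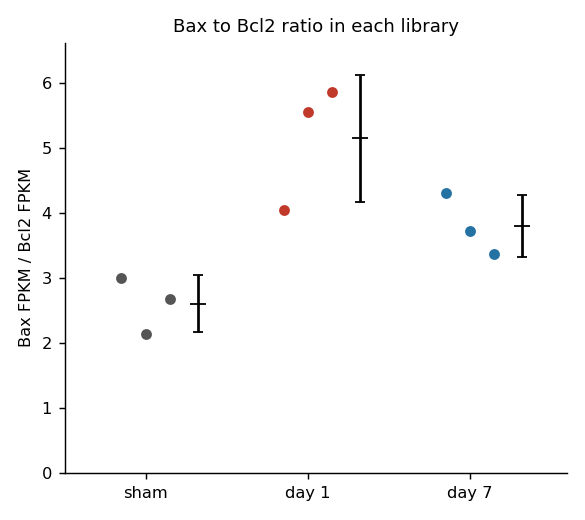
Ratio of Bax to Bcl2 FPKM (y axis, linear from 0) in each library of sham, day 1 and day 7, as points in the order of replicates 1 to 3 with the mean and SD (n = 3) in black. Sham libraries lie at 2.13 to 3.0, day 1 at 4.04 to 5.86 and day 7 at 3.37 to 4.30.

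The genes most like each called member were found by the root mean square difference of centred log2(FPKM + 1) over the 9 libraries, among 12424 genes. The root mean square of the members' own centred values was 0.22 (Bcl2) to 0.37 (Pmaip1). The nearest of so many candidates are close by selection, and no link to the members was tested. Nearest to Bax was Mgat2, a glycosyltransferase of N-glycan synthesis, at a difference of 0.02, followed by Sipa1 and Pde4b at 0.04 each. Pmaip1 was nearest to Skap2 (0.06), Arhgap25 and Acsl4 (0.10 each). Bcl2l11 was nearest to Ptprj, Akna and Pfkfb4 (0.07, 0.07 and 0.09), and Bid to Syce2, Relt and Hdac1 (0.08, 0.08 and 0.09). Bak1 had Sptlc2, Osgin1 and Ptbp3 (0.07 each). For Bcl2 these were Fbxo25, Kank2 and Dph1 (0.07, 0.08 and 0.08), and for Bcl2l1 Zfp536, Ppp2r5a and Tbx3 (0.06, 0.07 and 0.07).

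Of 16 other genes of the family, 12 were tested. At day 1 Bok and Bcl2a1b rose and Bnip3 fell, and at day 7 Bok, Bmf and Bik rose, 3 of 12 each time, beside 28.2% and 33.1% of all genes. The median log2 fold changes were 0.11 and 0.09. Bok, a relative of the effectors, was at 2.46, 2.32 and 3.09 FPKM in sham, 4.59, 5.98 and 4.61 on day 1 and 8.74, 6.03 and 6.40 on day 7. It lay above sham throughout (log2 fold change 0.74 and 1.14, SE 0.15, limma adjusted p = 0.0105 and 0.00283). The BH3-only gene Bmf rose at day 7 (1.67 ± 0.429 to 3.81 ± 0.765 FPKM; log2 fold change 0.85, SE 0.20, limma adjusted p = 0.0142). Bik, also BH3-only, just passed at day 7 (log2 fold change 0.37, limma adjusted p = 0.0498, lost in 14 of 20 alternatives). Bnip3, a mitochondrial protein induced by hypoxia, fell from 96.9 ± 24.0 to 56.0 ± 16.7 FPKM at day 1 (log2 fold change -0.79, SE 0.23, limma adjusted p = 0.0334, lost in 10 of 21 alternatives). Bcl2a1b, a guard of blood cells, was at 2.94, 2.35 and 4.08 FPKM in sham and 3.84, 7.91 and 8.15 on day 1, so the groups overlapped (log2 fold change 0.85, limma adjusted p = 0.0490). It has near-identical copies, among which reads may be split, and its call was lost in 14 of 20 alternatives. Bcl2l10, Hrk, Bcl2l14 and Bcl2l15 were under the minimum level.

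Downstream of the mitochondrion, of 17 genes of the apoptosome, the caspases and the IAP proteins (inhibitors of apoptosis), 4 rose and 4 fell at day 1 and 4 rose and 5 fell at day 7, beside 28.2% and 33.1% of all genes called in either direction. Their median log2 fold changes were 0.00 and 0.08. Birc5 (survivin), an IAP protein that also serves cell division, rose by 1.84 at day 1 and 1.06 at day 7 on the log2 scale (SE 0.27, limma adjusted p = 0.00390 and 0.0209). Genes of 6 cycling-cell markers all rose too at both times, with sums of 8.23 to 19.4, 50.4 to 73.0 and 31.7 to 54.4 FPKM. Among all genes tested, 13.4% were called higher at day 1 and 15.7% at day 7. Ccnb1, with a sham mean of 0.490 FPKM, passed the minimum of 1 FPKM only through the infarct groups. Cycs, which encodes cytochrome c, fell from 254 ± 14.9 to 154 ± 24.4 FPKM at day 1 (log2 fold change -0.73, SE 0.19, limma adjusted p = 0.0229) and to 175 ± 41.8 at day 7 (limma adjusted p = 0.0496, lost in 16 of 21 alternatives). Vdac2, a channel of the outer membrane to which BAK binds, fell by 0.57 at day 1 and 0.60 at day 7 (SE 0.14, limma adjusted p = 0.0168 and 0.0132). With TPM the values of Vdac2 were -0.30 and -0.24 and neither was called (limma adjusted p = 0.114 at day 7).

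Of 13 tested genes of the death receptor pathway, the route that Bid joins to mitochondria, 8 rose and 2 fell at day 1 and 8 rose and 1 fell at day 7, with medians of 0.64 and 0.42. Of all genes 13.4% and 15.7% were called higher and 14.7% and 17.3% lower. Tnf, counted among the rises at day 1, was at means of 0.601, 1.62 and 0.960 FPKM in sham, day 1 and day 7. It thus passed the minimum of 1 FPKM only through its level at day 1. Those of the pathway that fell at day 1 were Tnfsf10 (log2 fold change -0.68, limma adjusted p = 0.0243) and Fadd (-0.43, limma adjusted p = 0.019). At day 7 it was Fas (log2 fold change -0.57, limma adjusted p = 0.00935). Casp8, the caspase that cuts BID, was at 9.16, 9.31 and 9.81 FPKM in sham, 14.2, 21.8 and 21 on day 1 and 14.4, 14.8 and 13.8 on day 7. It was above sham in all infarct libraries (log2 fold change 0.92 and 0.56, SE 0.14, limma adjusted p = 0.00438 and 0.0204). The day 7 call of Casp8 was lost in 6 of 21 alternatives, with a value of 0.20 for its most abundant transcript (limma adjusted p = 0.267). Ripk3, a kinase of necroptosis, rose by 1.34 and 0.96 on the log2 scale (SE 0.17, limma adjusted p = 0.00258 and 0.00627). The TNF receptor gene Tnfrsf1a rose from 23.5 ± 0.191 to 43.0 ± 4.49 FPKM at day 1 and 38.9 ± 3.41 at day 7 (limma adjusted p = 0.00213 and 0.00327). Tnfrsf1b, the other TNF receptor gene, rose by 0.73 and 0.76 (SE 0.16, limma adjusted p = 0.0136 and 0.0109).

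Of 14 tested regulators of the family, 2 rose and 2 fell at day 1 and 3 rose and 2 fell at day 7, with medians of -0.01 and -0.12; these shares are near the 28.2% and 33.1% of all genes called. Trp53, which encodes p53, was at 8.06, 8.74 and 7.73 FPKM in sham, 10.7, 11.5 and 14.6 on day 1 and 13.3, 14.5 and 14.0 on day 7. It rose at both times (log2 fold change 0.52 and 0.70, SE 0.11, limma adjusted p = 0.0113 and 0.00468). E2f1, a factor of cell cycle entry, rose by 0.89 and 0.90 (SE 0.14, limma adjusted p = 0.00462 and 0.00460). With a sham mean of 0.660 FPKM, E2f1 passed the minimum of 1 FPKM only through its level in the infarct groups. Ddit3, whose product CHOP is known to act on Bcl2 and Bcl2l11 under folding stress, fell by 1.46 on the log2 scale at day 1 and dropped by 1.26 at day 7 (SE 0.27, limma adjusted p = 0.00793 and 0.0119). Ddit3 shares exons with another gene entry of the same symbol on its own strand, and with Gm4189 and Mars on the opposite strand, so its reads may be split. In sham it was at 36.7, 68.1 and 26.7 FPKM, a wide spread, against 13.5 to 15.2 at day 1 and 15.7 to 16.9 at day 7. Of all these lists, 0 genes were called between day 7 and day 1 by limma. In the 4 lists 3, 5, 6 and 1 of 12, 17, 13 and 14 genes tested had a limma unadjusted p under 0.05. The share of all genes was 23.2%.

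**Figure D5:**
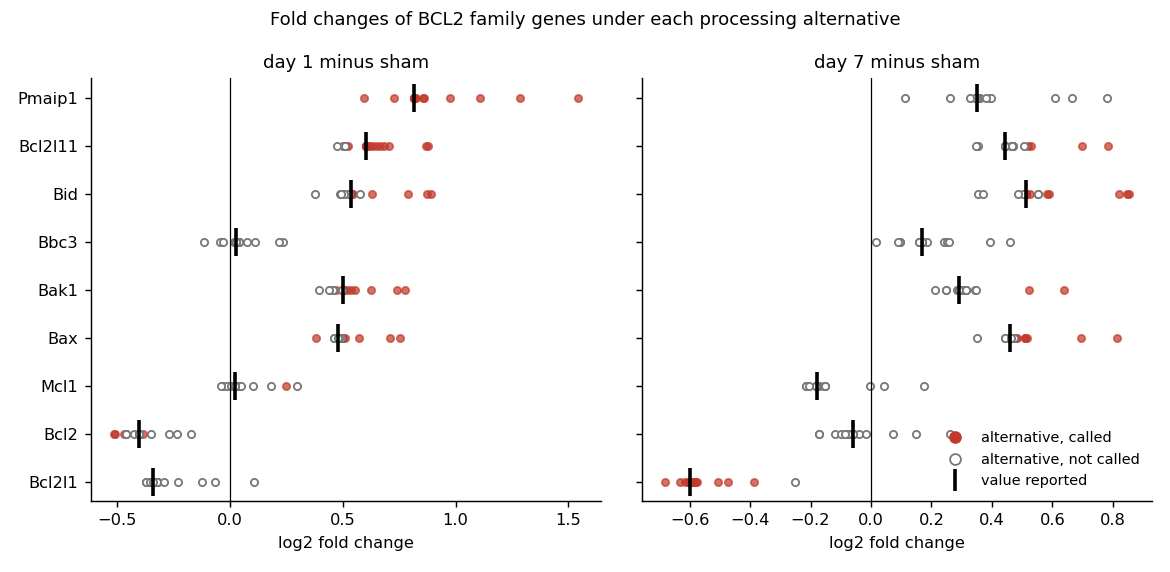
Log2 fold change (x axis) of each gene against sham at day 1 (left) and day 7 (right) under the processing alternatives, one point each, red where called and open where not, with the reported value as a black bar. Points of Bcl2l1 at day 1 reach from -0.37 to 0.11, and all but 1 of those at day 7 are called.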

How the data were processed

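The authors deposited FPKM per Ensembl transcript, 55361 entries in 9 libraries. The submitters' processing notes name HISAT2 (2.1.0), HTSeq (0.11.2), FastQC (0.11.9) and the build GRCm39, and per the labels total RNA was used. The sources used here do not give the annotation release, the strand setting or how reads were divided among transcripts. Depth is unknown: 11.8% of positive values were under 1e-06. FPKM was summed per gene, and genes with a mean of 1 FPKM or more (13514) entered a limma fit (3.58.1, under R 4.3.3) of log2(FPKM + 1) over all 9 libraries, with 1 mean per group and a variance trend. Tests were two-sided with Benjamini-Hochberg adjustment over the genes tested, called at an adjusted p under 0.05. An exact test of 3 against 3 cannot go below 0.1 and was not used. The log2(FPKM + 1) scale understates changes of low genes. The labels do not say that libraries of a group are separate animals, so p-values measure the spread between these libraries. The procedure was tested on simulated data of day 1 against sham. It recovered 27.2% of genes with a log2 change of 0.5 and 76.1% of those with a change of 1. A small change may thus go uncalled. GENCODE M21 (GRCm38) gave coding lengths, start sites and exon overlaps by transcript identifier, and RefSeq promoter windows were found for 8 members. The members and gene lists were chosen with earlier results of these data known. Tnf and the death receptor genes that fell are named for the counts of that pathway. Named by rule are the members, and of each pathway list and comparison up to 3 called genes with the largest change. The rule also names the 3 most similar genes of each called member. A gene that this rule also names is not reported here. There were 21 alternatives in pseudocount, minimum level, scaling, fit, transcript use and libraries left out.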

Additional observations from a re-analysis of the deposited data

How the results depend on the processing

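Directions against sham of called members did not change, except that Bcl2l1 at day 1 had a log2 fold change of 0.11 when only the most expressed transcript was used. Rescaling moved the median of all genes at day 1 from -0.01 to 0.24 (TPM) and 0.21 (without mitochondrially encoded genes), and at day 7 from -0.02 to 0.30 and 0.20; among calls, those that were higher went from 47.7% to 80.8% and 80.7% at day 1 and from 47.6% to 88.1% and 79.4% at day 7. At day 1, members lower numbered 0 with either rescaling, 0 with the replicate block, and 1 with no minimum level, quantile normalization, a fit of only the 2 groups or the most expressed transcript. Members higher at day 1 numbered 3 with a minimum of 5 FPKM, which left 6 members tested. At day 7, members lower numbered 0 with TPM, and members higher 1 with quantile normalization and 1 with the replicate block. With both libraries with airway RNA left out, 0 members were higher and 0 lower at day 1 and 0 were higher at day 7. Leaving out single libraries gave 0 to 5 members higher and 0 to 1 lower at day 1, and 0 to 3 higher and 1 to 1 lower at day 7. Between day 7 and day 1, 0 members were called in any alternative. The mean ratio of Bax to Bcl2 was 3.40 in sham, 7.52 at day 1 and 5.14 at day 7 with the most expressed transcript, and without single libraries 2.41 to 2.84, 4.80 to 5.71 and 3.55 to 4.01. Same-numbered libraries deviated together with correlations from -0.37 to 0.27, and different-numbered ones with correlations from -0.53 to 0.40. With 3 libraries a group, this cannot show whether replicate numbers pair the samples. The cause of the changed counts was not tested.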
